A study of Arabidopsis thaliana with 9 samples.

Results

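The genes ycf3, ycf4, ccsA and cemA of the Arabidopsis thaliana plastid genome encode factors that assemble or support the photosynthetic machinery. These 4 genes were picked by symbol from the platform's probe-to-gene table, where each of the 4 has 1 probe set of its own, out of 69 plastid-encoded genes and 22746 probe sets measured. The 9 arrays came from above-ground parts of greenhouse plants of the Col-0 background, harvested at an age of 8 weeks, with 3 biological replicates in each of 3 groups. The first group was wild type. The other groups carried an RNA interference (RNAi) transgene against msh1, a nuclear gene for a MutS homologue that guards organelle genomes against recombination, and comprised plants that were variegated in one group and stunted in the other. The labels give neither the promoter of the transgene nor the number of independent lines, and the level of MSH1 itself was not analysed here.

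The plastid genome encodes the reaction centre of photosystem I, but the complex is put together with helper proteins that are not part of it. Ycf3 and Ycf4 are such helpers. Ycf3 acts early, on the reaction centre proteins PsaA and PsaB, and is known to be indispensable for photosystem I in tobacco, while tobacco without Ycf4 still makes some of the complex. CcsA attaches haem to c-type cytochromes in the thylakoid lumen, among them cytochrome f, the product of petA in the cytochrome b6f complex. CemA is a protein of the inner envelope membrane with a part in proton and ion balance of the chloroplast. The gene ycf3 is split by introns, and ycf4 and cemA belong to a cluster that is known to be transcribed together with psaI and petA.

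Values are log2 expression as deposited, so a difference of 1 is a doubling, and the array medians lay between 3.37 and 3.43. The arrays correlated at r = 0.9855 to 0.9946 within groups and at 0.9736 to 0.9912 between groups, across probe sets. The label protocol names the manufacturer's standard preparation of biotinylated cRNA. As background, such preparations usually prime from poly(A) tails, which most plastid transcripts lack, and the labels do not name the primer. Of the markers for the labelled tissue, 1 of 10 green leaf genes had a listed probe set: RCA, Rubisco activase, at 12.52 to 13.02 over the 9 arrays. Of 5 root markers, EXPA7, a root hair expansin, lay near the floor at 2.71 to 3.22, and PYK10, a root beta-glucosidase, lay at 3.78 to 4.45 on wild-type and variegated arrays. The guard cell gene FMA lay at 3.68 to 3.93. None of the flower or vascular markers had a listed probe set.

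Of the 4 genes, ycf3 was higher in stunted plants, and the levels of ycf4, ccsA and cemA varied as much between replicates as between groups. In wild type, ycf3 stood at 4.43, 3.90 and 4.01 on replicates 1, 2 and 3. The variegated arrays gave 4.71, 5.39 and 4.99, and the stunted arrays gave 4.85, 5.33 and 5.81. All 6 RNAi arrays were above the highest wild-type array, while the variegated and stunted arrays overlapped. Against wild type (4.11 ± 0.28, mean ± SD, n = 3), ycf3 rose in stunted plants (5.33 ± 0.48, n = 3) by 1.22 on the log2 scale (SE 0.25, 95% interval 0.65 to 1.79, 2.33-fold, limma adjusted p = 0.017). In variegated plants (5.03 ± 0.34, n = 3) the difference from wild type was 0.92 (SE 0.25, 95% interval 0.35 to 1.49, 1.89-fold) and did not pass (limma adjusted p = 0.174). The adjustment is over all probe sets, and the unadjusted limma p was 0.00533. Stunted and variegated plants differed by 0.30 in ycf3 (95% interval -0.27 to 0.87, limma adjusted p = 0.662), so the order of the levels was wild type, then variegated and stunted, with the last pair inside their spread.

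These counts are read against the background of all probe sets. In stunted plants 1 of the 4 genes passed in the upward direction, where 4.91% of all probe sets did, and in variegated plants none passed, where 0.268% of all probe sets passed upward. Between stunted and variegated plants none of the 4 passed, where 0.87% of all probe sets passed upward. Arrays that did not overlap and were higher than wild type were found for 9.36% of all probe sets in variegated and 11.9% in stunted plants, and for 1 of the 4 genes, ycf3, in each. Of the other 65 plastid-encoded genes, 4 in variegated and 16 in stunted plants had arrays wholly above wild type. Wholly below it were 3 of these 65 in variegated and 0 in stunted plants. Both comparisons share the same wild-type arrays. Downward, none of the 4 passed, where 0.176% of all probe sets did in variegated plants, 4.75% in stunted plants and 0.87% between the RNAi groups. In either direction the shares were 0.444%, 9.66% and 1.74%. None of the 4 had arrays wholly below those of wild type, against 7.43% of all probe sets in variegated and 11.2% in stunted plants. Between the RNAi groups all 4 overlapped, where 8.11% of all probe sets did not overlap upward and 9.55% downward.

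**Figure D1:**
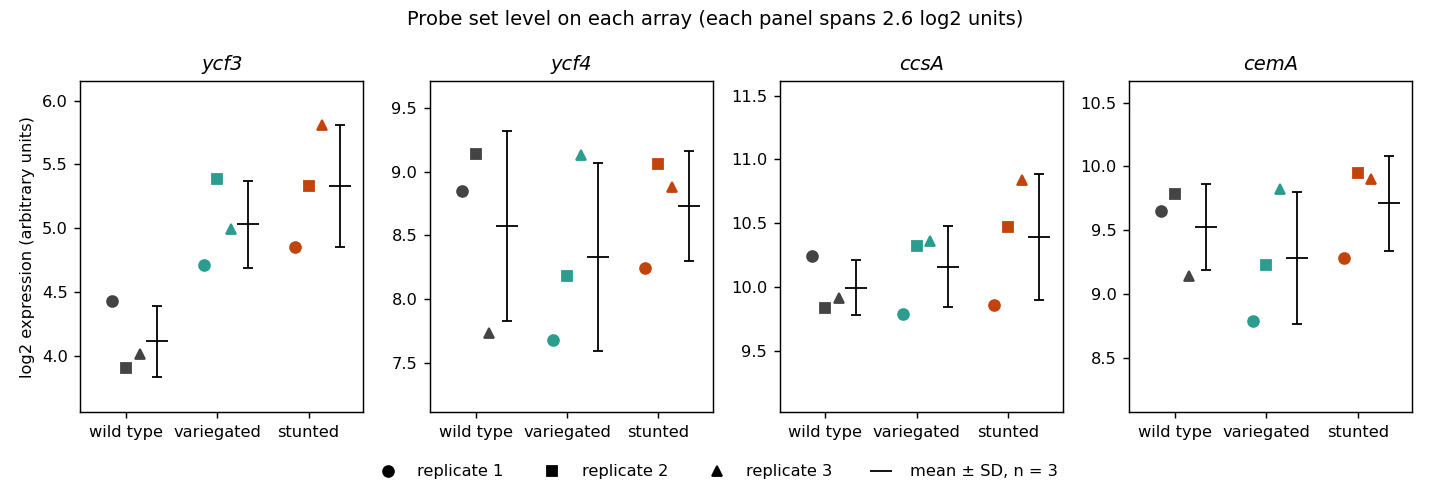
Log2 expression of ycf3, ycf4, ccsA and cemA on each of the 9 arrays (vertical axis, log2 units, same span in each panel) by group (horizontal axis), with symbols for replicates and the mean ± SD of 3 arrays beside them. The 6 RNAi arrays of ycf3 lie at 4.71 to 5.81, above the wild-type arrays at 3.90 to 4.43, while the groups overlap for the other genes.

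The call of ycf3 in stunted plants rested on few arrays. It was lost without wild-type replicate 2 (1.11, limma adjusted p = 0.0667), wild-type replicate 3 (1.17, limma adjusted p = 0.0555) or stunted replicate 2 (1.22, limma adjusted p = 0.0599), and held in the other 6 omissions. The difference stayed between 0.98 and 1.46 in all 9. Signals that point to RNA quality had higher means on stunted than on wild-type arrays. The 25S ribosomal RNA control was 4.96 ± 1.28 on wild-type, 6.04 ± 2.28 on variegated and 7.36 ± 2.48 on stunted arrays (n = 3). The actin 3' minus 5' signal was 1.26 ± 0.26, 1.15 ± 0.27 and 1.65 ± 0.27 in the same order, so its variegated mean was not above wild type. With the 25S signal as a covariate, ycf3 was higher by 1.06 (SE 0.28, limma adjusted p = 0.0597), and with the actin signal by 1.01 (SE 0.30, limma adjusted p = 0.0949). The root marker PYK10 also rose in stunted plants, to 5.51 to 5.98 (difference 1.5, SE 0.15, limma adjusted p = 0.000875), while EXPA7 did not pass (0.01, limma adjusted p = 0.964). The levels of both root markers, added on the linear scale and returned to log2, came to 4.5 to 4.84 in wild type, 4.47 to 4.63 in variegated and 5.73 to 6.13 in stunted plants, and their part in the level of ycf3 was not tested.

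ycf4, the second photosystem I assembly gene, had the widest spread of the 4 between replicates in wild type and in variegated plants (SD 0.75 and 0.74). In stunted plants its SD was 0.43, below that of ycf3 and ccsA. Its level was 8.85, 9.14 and 7.73 in wild type, 7.68, 8.18 and 9.13 in variegated plants, and 8.24, 9.06 and 8.88 in stunted plants. Wild-type replicate 3 and variegated replicate 1 were low, and all 3 groups overlapped. The widest range within a group was 1.45 (variegated), against 0.40 between the highest and the lowest group mean. Variegated plants differed from wild type by -0.24 (SE 0.44, 95% interval -1.22 to 0.74, limma adjusted p = 0.886). Stunted plants differed from wild type by 0.16 (SE 0.44, 95% interval -0.82 to 1.14, limma adjusted p = 0.891). The first interval includes a halving but not a doubling, and the second a doubling but not a halving. The sign of the stunted difference turned without wild-type replicate 3 (-0.27) or stunted replicate 2 (-0.01).

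cemA, the envelope membrane gene next to ycf4, followed the same arrays. It stood at 9.65, 9.78 and 9.14 in wild type, at 8.79, 9.23 and 9.82 in variegated plants, and at 9.28, 9.95 and 9.90 in stunted plants. Again wild-type replicate 3 and variegated replicate 1 were the lowest arrays of the 9, except that variegated replicate 2 and stunted replicate 1 were close to the former. The differences were -0.24 in variegated (SE 0.28, 95% interval -0.87 to 0.39, limma adjusted p = 0.803) and 0.18 in stunted plants (SE 0.28, 95% interval -0.45 to 0.81, limma adjusted p = 0.777) against wild type. Stunted plants were 0.43 above variegated ones (95% interval -0.20 to 1.06, limma adjusted p = 0.537).

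ccsA, the cytochrome c maturation gene, varied least in wild type. Its level was 10.24, 9.83 and 9.91 in wild type, 9.79, 10.32 and 10.36 in variegated plants, and 9.86, 10.47 and 10.84 in stunted plants. Replicates 2 and 3 of both RNAi groups were above every wild-type array and replicate 1 of both was not. The difference from wild type was 0.17 in variegated plants (SE 0.25, 95% interval -0.39 to 0.72, limma adjusted p = 0.856) and 0.40 in stunted plants (SE 0.25, 95% interval -0.16 to 0.95, limma adjusted p = 0.406). Stunted and variegated plants differed by 0.23 (95% interval -0.32 to 0.79, limma adjusted p = 0.748). For ccsA and cemA the intervals against wild type end below 1. In stunted plants they overlap the interval of ycf3 (0.65 to 1.79), and the genes were not tested against each other.

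**Figure D2:**
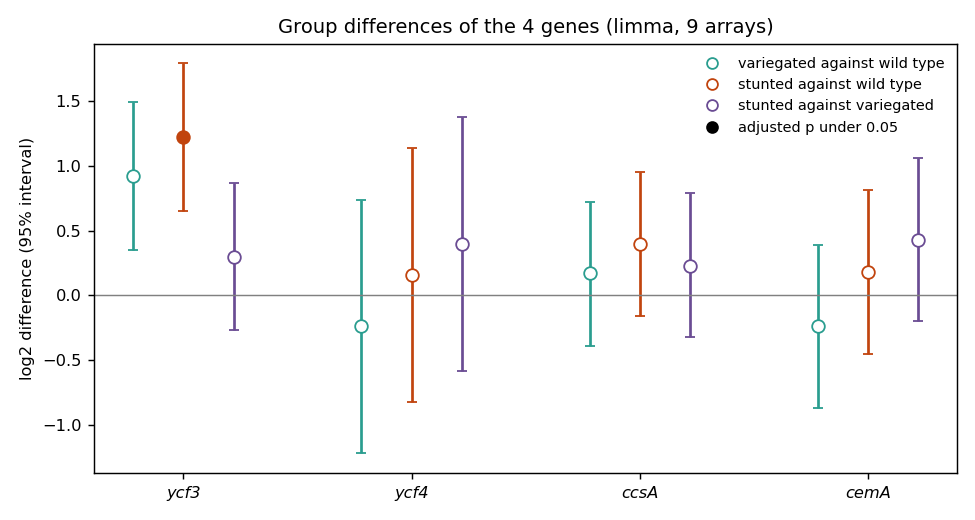
Log2 differences between groups (vertical axis) for the 4 genes in the 3 comparisons, with 95% intervals from limma over 9 arrays; filled points have an adjusted p under 0.05. The filled point is ycf3 in stunted plants at 1.22, and the intervals of ycf4, ccsA and cemA include 0 in each comparison.

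Plastid transcripts as a whole differed between arrays, so each gene was also set against the mean of the other 68 plastid-encoded genes on the same array. That mean over all 69 genes was 7.83 ± 0.24 in wild type, 7.96 ± 0.29 in variegated and 8.27 ± 0.44 in stunted plants (n = 3). Relative to the others, ycf3 stood at -3.67, -4.03 and -3.63 in wild type, at -2.95, -2.74 and -3.22 in variegated plants, and at -3.01, -3.0 and -2.93 in stunted plants. The sign shows that the ycf3 probe set is dimmer than the mean of the others. Whether this lies in its probes or its transcript was not tested, and the comparison is between groups. On this scale all RNAi arrays again lay above wild type. The difference was 0.81 for variegated and 0.80 for stunted plants, each with an exact permutation p of 0.1 (two-sided, n = 3 a group), the smallest that 3 against 3 arrays allow. Between stunted and variegated plants it was -0.01 (exact permutation p = 1). As a level, the SD of ycf3 was 0.28 in wild type, 0.34 in variegated and 0.48 in stunted plants. On this relative scale its SD was 0.22, 0.24 and 0.05 in the same order.

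For ccsA, the relative level was nearly the same on all arrays, at 1.98 to 2.36, and the groups overlapped. It was 2.19 ± 0.19 in wild type, 2.23 ± 0.04 in variegated and 2.15 ± 0.07 in stunted plants (n = 3), with exact permutation p of 0.8 for both RNAi groups against wild type. For ycf4 and cemA the mean relative levels of both RNAi groups were below wild type, with overlapping arrays. The relative difference of ycf4 was -0.37 in variegated and -0.28 in stunted plants (exact permutation p = 0.5 and 0.6, n = 3). That of cemA was -0.38 and -0.25 (exact permutation p = 0.3 for both, n = 3). The SD of its relative level was 0.19 in wild type, 0.29 in variegated and 0.23 in stunted plants. With 3 arrays a group this test cannot fall below 0.1, so it cannot decide whether these genes differed.

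**Figure D3:**
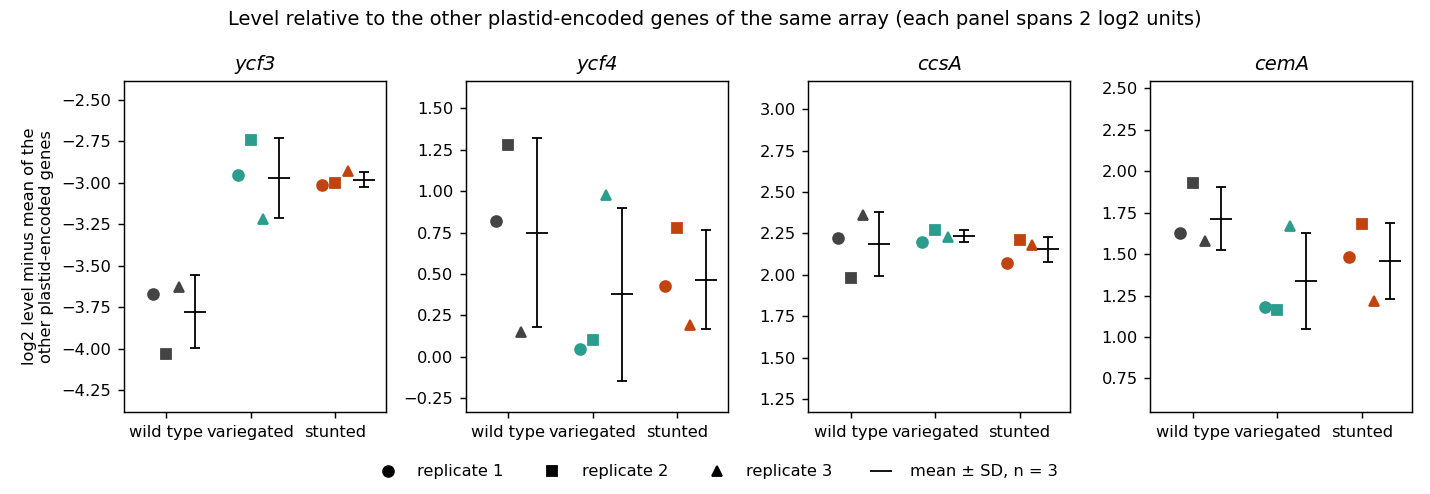
Level of each of the 4 genes minus the mean of the other 68 plastid-encoded genes of the same array (vertical axis, log2 units) by group, with symbols for replicates and the mean ± SD of 3 arrays. ycf3 lies at -4.03 to -3.63 in wild type and at -3.22 to -2.74 on the RNAi arrays, and ccsA stays between 1.98 and 2.36 throughout.

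Among the 69 plastid-encoded genes, ranked from the highest difference downward, ycf3 was at place 4 in variegated and place 5 in stunted plants. ccsA was at places 26 and 31, ycf4 at 60 and 51, and cemA at 61 and 47. Of the other 65, 8 passed upward in stunted plants and 1 in variegated plants, none passed downward, and the median differences were 0.28 and 0.07, beside 0.01 over all probe sets in both. The 8, named in full after their values were seen, were the ribosomal protein genes rpl16, rpl20, rps2 and rps4, the RNA polymerase subunit genes rpoC1 and rpoC2, the protease gene clpP and the ATP synthase gene atpA. With ycf3 the count in stunted plants was 9 of 69. It was 2 without wild-type replicate 2, 3 without wild-type replicate 3, 5 without stunted replicate 2, 3 without stunted replicate 3 and 17 without stunted replicate 1. In above-ground parts taken whole, a different number of cells of a type and a different amount of RNA per cell cannot be told apart.

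**Figure D4:**
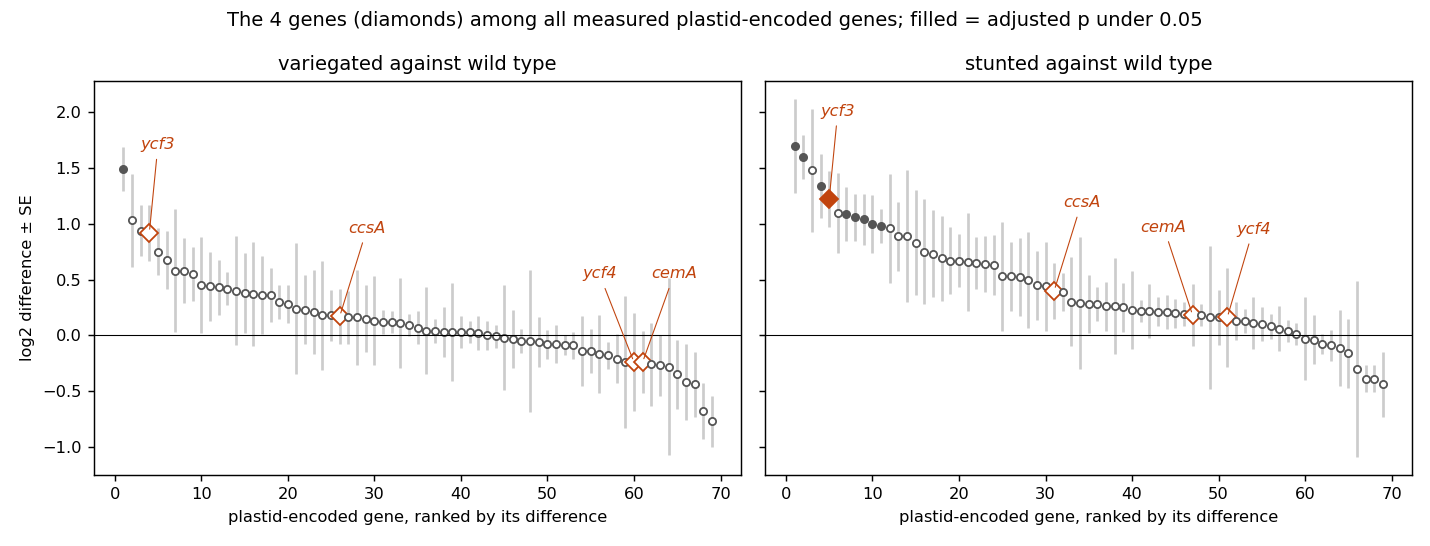
Log2 difference from wild type (vertical axis, ± SE) of the 69 measured plastid-encoded genes, ranked (horizontal axis), in variegated and in stunted plants; diamonds are the 4 genes and filled symbols have a limma adjusted p under 0.05. ycf3 sits at places 4 and 5, while ycf4 and cemA sit in the lower part of both rankings.

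Transcripts that encode proteins these factors act on were measured too, while the proteins themselves were not. ycf3 lies next to psaA and psaB, which encode the reaction centre proteins that Ycf3 helps to assemble. psaA was at 8.42, 8.46 and 7.03 in wild type, at 7.49, 8.60 and 8.53 in variegated plants, and at 7.55, 9.27 and 9.76 in stunted plants. Unlike for ycf3, the RNAi arrays of psaA overlapped those of wild type. The level of psaA differed from wild type by 0.24 in variegated (SE 0.59, limma adjusted p = 0.922) and 0.89 in stunted plants (SE 0.59, limma adjusted p = 0.447). The 95% interval of the stunted difference, -0.45 to 2.23, contains that of ycf3. psaB gave 0.04 (limma adjusted p = 0.986) and 0.73 (limma adjusted p = 0.333). None of the 5 plastid photosystem I subunit genes passed in any comparison. Over all probe sets, 0.444% passed in variegated plants, 9.66% in stunted plants and 1.74% between the RNAi groups, in either direction. The stunted differences of the 5 ran from -0.44 for psaJ to 0.89 for psaA, with a median of 0.50.

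On the other side of ycf3, beyond the tRNA gene trnS, lies rps4, a small ribosomal subunit gene. It stood at 10.86, 10.50 and 10.40 in wild type, at 11.01, 11.75 and 11.24 in variegated plants, and at 11.29, 11.81 and 11.84 in stunted plants. Its RNAi arrays were all above wild type, as for ycf3. It rose in stunted plants by 1.06 (SE 0.21, limma adjusted p = 0.0153) and gave 0.75 in variegated plants (SE 0.21, limma adjusted p = 0.19). Leaving out replicate 2 or 3 of either group ended this call of rps4, at limma adjusted p as high as 0.0643. It also ended with the 25S signal (0.97, limma adjusted p = 0.0526) or the actin signal (1.02, limma adjusted p = 0.0683) as a covariate, and with no moderation (1.06, adjusted p = 0.0891 from the limma fit).

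Over the 9 arrays rps4 was also the gene most like ycf3 of 13355 genes compared, at r = 0.98, followed by rpl16, a large ribosomal subunit gene, at 0.974 and the nuclear gene AT1G20810 at 0.941. These correlations are a description over 9 arrays that share 3 groups and the same RNA extracts. The r of ycf3 was 0.69 with psaA and 0.71 with psaB. With the other 68 plastid genes its r ran from -0.82 to 0.98, with a median of 0.62. rpl16 rose in stunted plants by 1.70 (SE 0.42, limma adjusted p = 0.0368), a call lost in 6 of the 9 omissions (limma adjusted p up to 0.108). The rpl16 call was also lost with the 25S signal (1.47, limma adjusted p = 0.118), the actin signal (1.39, limma adjusted p = 0.175), no moderation (limma adjusted p = 0.15) and the compared groups alone (limma adjusted p = 0.0505). AT1G20810 gave 0.25 (SE 0.07, limma adjusted p = 0.0504).

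ycf4 and cemA were each other's most similar gene of 13355, at r = 0.955 over the 9 arrays. They lie side by side, between psaI and petA. The level of ycf4 minus that of cemA ran from -1.42 to -0.64 over the 9 arrays and overlapped between the groups. Their outer neighbours moved less closely with ycf4, at r = 0.70 for psaI, a small photosystem I subunit gene, 0.70 for petA and 0.72 for accD, a gene of fatty acid synthesis. psbJ, the next gene beyond petA and a photosystem II subunit gene, had r = -0.30 with cemA. accD had the largest difference of the cluster in stunted plants, at 1.48 (SE 0.55, limma adjusted p = 0.142), and petA, whose product receives haem through CcsA, had 0.21 (SE 0.13, limma adjusted p = 0.402). The next most similar genes were the nuclear AT5G49320 (r = 0.88) and BHLH101 (0.869) for ycf4, with mean levels of 3.22 and 2.74. For cemA they were the nuclear AT3G09700 (0.936), at a mean of 3.23, and the plastid gene ndhA (0.908). The means of AT5G49320, BHLH101 and AT3G09700 lie below every array median, so these likenesses are between dim signals and plastid ones.

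The low arrays of ycf4 and cemA were low for many plastid genes. Within wild type, 46 of the 69 genes were lowest on replicate 3, within variegated plants 62 were lowest on replicate 1, and within stunted plants 57 were lowest on replicate 1. In wild type ycf3 and ccsA were lowest on replicate 2 instead. Its r was 0.19 with ycf4, 0.28 with cemA and 0.80 with ccsA, while ccsA had r = 0.66 with cemA and 0.52 with ycf4.

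ccsA lies between the tRNA gene trnL and ndhD, a subunit gene of the NDH complex. ndhD was at 8.91, 8.49 and 8.13 in wild type, 8.44, 9.11 and 9.26 in variegated plants and 8.97, 9.05 and 9.42 in stunted plants, and its r with ccsA was 0.82. It differed from wild type by 0.43 in variegated (SE 0.25, limma adjusted p = 0.563) and 0.64 in stunted plants (SE 0.25, limma adjusted p = 0.157). psaC beyond it gave 0.50 in stunted plants (limma adjusted p = 0.58) and rpl32 on the other side gave 0.28 (limma adjusted p = 0.327). The most similar genes to ccsA were the nuclear genes AT1G74320 (r = 0.963) and AT4G21170 (0.958), at mean levels of 4.31 and 2.83, and the plastid gene ndhJ (0.956). The mean of AT4G21170 lies below every array median.

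**Figure D5:**
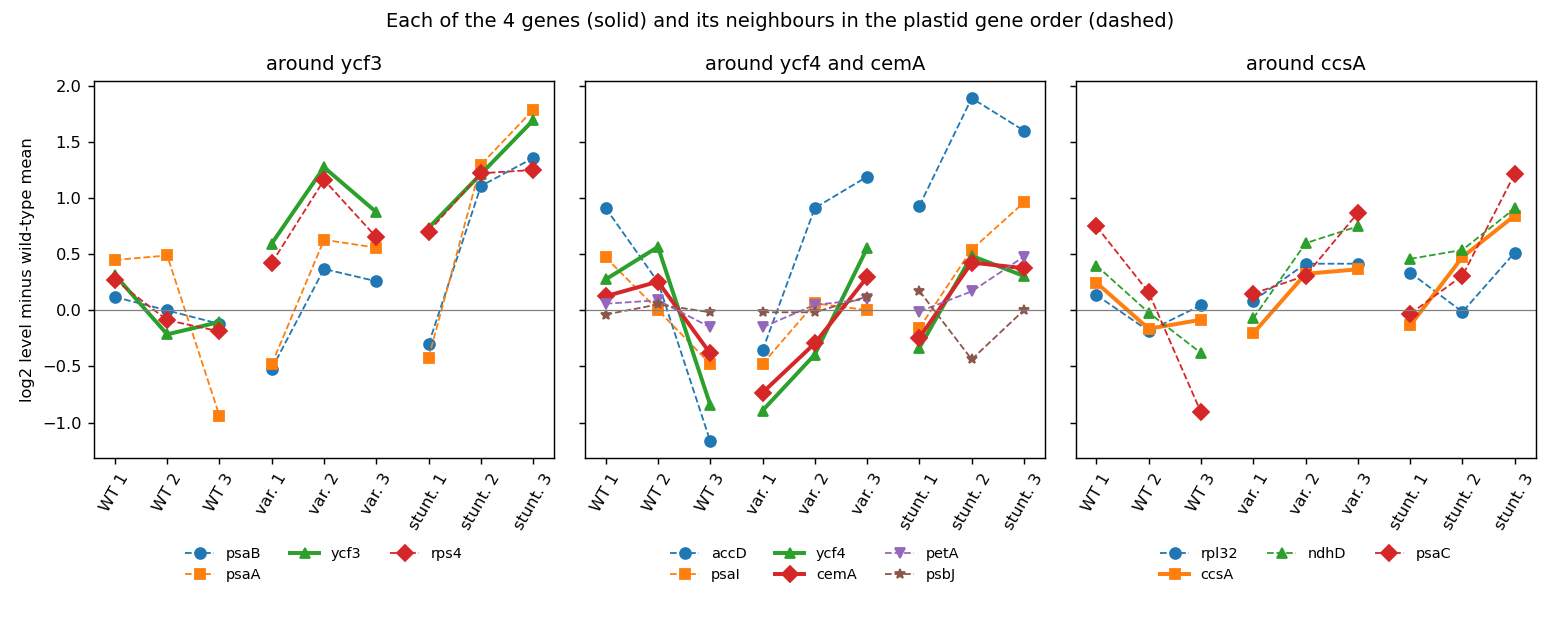
Level minus the wild-type mean (vertical axis, log2 units) on each array (horizontal axis) for the 4 genes (solid) and the measured genes around them in the plastid gene order (dashed); lines join the arrays of a group to follow a gene, and replicates have no order. ycf3 and rps4 run together above wild type on all RNAi arrays, and ycf4 and cemA run together with low values on wild-type replicate 3 and variegated replicate 1.

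Nuclear partners of the 4 proteins were sparsely represented on the annotated array. Calls among them in stunted plants are read against the 9.66% of all probe sets that passed there in either direction. Of 8 listed nuclear genes for photosystem I assembly, 2 were measured. AT1G22700 stood at 7.1, 7.0 and 7.06 in wild type and at 7.33, 7.55 and 7.31 in stunted plants. It rose there by 0.35 (SE 0.08, limma adjusted p = 0.0269), a call that ended when wild-type replicate 2, wild-type replicate 3 or stunted replicate 2 was omitted (limma adjusted p up to 0.0916). For AT1G22700 the call ended too with the 25S signal (0.30, limma adjusted p = 0.0979), the actin signal (0.34, limma adjusted p = 0.098), no moderation (limma adjusted p = 0.062), an intensity trend (limma adjusted p = 0.0808) and the compared groups alone (limma adjusted p = 0.0735). HCF101, an iron-sulfur cluster carrier needed for photosystem I, gave 0.20 (SE 0.09, limma adjusted p = 0.2). The nuclear subunit genes PSAN and PSAE-1 each gave -0.15 (limma adjusted p = 0.307 and 0.25), and these were 2 of 12 listed.

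Of 6 listed nuclear genes for splicing of plastid introns, CAF1 was measured. It stood at 3.54, 4.11 and 4.08 in wild type, at 4.29, 4.63 and 4.65 in variegated plants, and at 5.01, 5.14 and 5.33 in stunted plants, so the 3 groups did not overlap. CAF1 rose in stunted plants by 1.25 (SE 0.17, 2.37-fold, limma adjusted p = 0.0025), and passed in all 9 single-array omissions. In variegated plants it gave 0.62 (SE 0.17, limma adjusted p = 0.166).

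Of 3 listed nuclear genes for plastid cytochrome c maturation, 2 were measured, the pathway in which CcsA acts. AT1G49380 was at 6.65, 6.79 and 6.70 in wild type, at 7.05, 6.94 and 6.97 in variegated plants, and at 7.20, 7.63 and 7.79 in stunted plants, without overlap between the groups. It rose in stunted plants by 0.82 (SE 0.13, limma adjusted p = 0.006) and passed in all 9 omissions, while ccsA itself gave the 0.40 above. CcdA, a thiol-disulfide transporter, gave 0.23 (SE 0.10, limma adjusted p = 0.222). Variegated plants gave 0.27 for AT1G49380 (SE 0.13, limma adjusted p = 0.49).

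In the remaining lists, too, calls are read against the 9.66% of all probe sets that passed in stunted plants in either direction. Of 9 listed nuclear genes of cytochrome b6f, AT2G26500 (0.12, limma adjusted p = 0.313) and CCB3 (0.08, limma adjusted p = 0.658) were measured and did not pass in stunted plants. Of the 6 plastid-encoded subunit genes none passed, with stunted differences from -0.04 to 0.53. Those with the smallest p were petG (0.22, limma adjusted p = 0.24) and petL (0.53, limma adjusted p = 0.385). The level of petG, 2.4 to 2.8 over the 9 arrays, lay below every array median. Of 15 plastid-encoded photosystem II genes none passed, psbF and psbE having the smallest adjusted p (0.0768 and 0.0877 from limma) at -0.39 each. Most of this list went the other way in stunted plants. There 9 of the 15 differences were above 0, with a median of 0.16 and a highest of 0.96. In the list for ion and proton balance of the chloroplast, AT1G54520 rose in stunted plants by 0.52 (SE 0.12, limma adjusted p = 0.0309), a call lost in 5 of the 9 omissions (limma adjusted p up to 0.111). It was lost as well with the 25S signal (0.45, limma adjusted p = 0.105), the actin signal (0.46, limma adjusted p = 0.14), no moderation (limma adjusted p = 0.112) and the compared groups alone (limma adjusted p = 0.0822). AT4G31040 of the same list gave 0.09 (limma adjusted p = 0.743). Of 8 listed nuclear genes for plastid transcription, AT5G15700 was measured and gave 0.22 (limma adjusted p = 0.159). None of these lists had a member that passed in variegated plants, where 0.444% of all probe sets passed in either direction. With so low a share, lists this short would mostly hold no call.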

How the data were processed

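Expression was measured on Affymetrix arrays with biotin-labelled cRNA. The authors deposited log2 values for each array. RMA and the affy package are named, with no version, per the submitters' processing notes, and how background was handled is not stated there. RMA sets arrays to nearly one distribution, so a shift common to most transcripts would not be seen, and differences of dim probe sets can be compressed. The number of arrays limits the precision.

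After 64 control probe sets were set aside, 22746 probe sets entered the limma fit (version 3.58.1, R 4.3.3). It had 1 mean per group over all 9 arrays, empirical Bayes moderation and two-sided tests. Benjamini-Hochberg adjustment ran over all probe sets within each comparison, with 0.05 as the threshold, and intervals are 95% limma intervals. Values relative to other plastid genes were compared with an exact permutation test. The procedure was run on simulated data with independent noise on each array. These held no shared array, replicate-number or RNA effects, so the run says nothing about those.

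Gene names came from the platform's table, which can be old: 13513 probe sets (59.4%) name a single gene, 503 name more than 1, and 8730 are absent from it. The brightest probe set stood for a gene, which left 13356 genes, of which 13286 matched RefSeq's TAIR10.1 gene list on their gene number. That list gave names and gene order alone, since the files name no build.

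The named genes are the 4, up to 2 neighbours on each side of each, the 3 genes with the highest r over the 9 arrays, and from each list up to 4 members that passed or, where none did, the 2 with the smallest p. Members and lists were chosen with earlier results of these data known. The labels call the replicates biological, with RNA extracted from each plant, so p-values measure the spread between these samples.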

Additional observations from a re-analysis of the deposited data

How the results depend on the processing

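Alternatives covered the replicate block, the compared groups alone, moderation, array weights, scaling, dim probe sets, RNA signals as covariates and each array left out. The mean of several probe sets could not be tried, since each of the 4 genes has 1. Of the 12 tests on the 4 genes, the call of ycf3 in stunted plants ended with no moderation (1.22, limma adjusted p = 0.0983), with the 25S signal (1.06, limma adjusted p = 0.0597) and with the actin signal (1.01, limma adjusted p = 0.0949). It held in the other 8 settings, and over the 9 omissions ran from 0.98 to 1.46. In variegated plants ycf3 passed in none, with limma adjusted p from 0.0532 (array weights) to 0.433, and 0.74 to 1.08 over the omissions. Signs of values that did not pass turned in places. In stunted plants against wild type these were ycf4 with the 25S signal (-0.16) and cemA with the 25S (-0.11) and actin (-0.04) signals; against variegated plants it was ccsA with the actin signal (-0.17). Over the omissions, ycf4 ran from -0.66 to 0.09 in variegated and from -0.27 to 0.44 in stunted plants, and cemA from -0.01 to 0.40 in stunted plants. Relative to psa, psb and pet genes alone, ycf3 gave 0.08 in stunted against variegated plants, and ccsA gave 0.18 against wild type and 0.01 against variegated plants. Over the omissions the relative differences of stunted against variegated plants ran from -0.13 to 0.11 for ycf3 and from -0.07 to 0.39 for ycf4. Those of ccsA against wild type ran from -0.06 to 0.13 in variegated and from -0.14 to 0.05 in stunted plants. The relative differences of ycf3 from wild type were 0.91 and 1 against those genes alone.

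Counts of probe sets called moved more. For variegated against wild type (101) the count was 191 with the replicate block, 206 with the compared groups alone, 1 with no moderation, 349 with array weights, 155 with the 25S and 186 with the actin signal, and 10 to 206 over the omissions. For stunted against wild type (2197) it was 1321 with the compared groups alone, 797 with no moderation and 1412 with the actin signal, and 1241 to 2955 over the omissions. For stunted against variegated (396) it was 940 with the replicate block, 133 with the compared groups alone, 32 with no moderation, 1028 with array weights and 79 with the actin signal, and 48 to 1404 over the omissions. With the replicate block, ycf3 gave 1.22 in stunted plants (limma adjusted p = 0.0215), and no call among the 4 genes changed. Same-numbered arrays were not taken as pairs, since pairing was to require every correlation of their deviations above 0.1 and 3 of the 9 were not (0, 0.01 and 0.09). In 8 of 9 arrays the deviations correlated best with an array of the same number, a hint from the data and not from the design. The count of plastid-encoded genes higher in stunted plants (9), whose alternatives were chosen after seeing the data, was 2 with no moderation, 3 with the 25S signal, 2 with the actin signal and 2 to 17 over the omissions. The cause of these changes was not tested.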
